A study of Mus musculus with 21 samples.

Results

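The genes described here mark macrophages and monocytes, the phagocytes that make up much of the host infiltrate of many mammary tumours. They are a list of 32 known identity genes, of which 31 were among the 22180 genes measured. Each of the 31 was read by 1 probe set assigned to it alone. Spp1 was the remaining listed gene and was not analysed here. By role they fall into 10 lineage and surface genes, 9 adapters and receptors of ITAM signalling, the 3 chains of complement C1q, 8 genes of the lysosome, phagosome and cytoplasm, and the secreted lipid carrier Apoe. The group of 9 also holds the inhibitory receptors Fcgr2b and Lilrb4a.

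Measurements came from 21 arrays. The mammary carcinoma lines Py117 and Py8119 were derived as clones from MMTV-PyMT mice, in which the mammary tumour virus promoter drives the polyomavirus middle T oncogene. Each unmixed group therefore rests on a single line. Both lines were profiled in culture (3 arrays each, in Ham's F12K medium with 5% serum) and as orthotopic tumours (5 arrays each). A further 5 arrays came from tumours grown from both lines implanted at a 1:1 ratio, called mixed tumours below. Implants were 1000000 cells in mammary fat pad 4, in saline and matrigel. Nothing was irradiated or treated, and tumours were taken on the day irradiation would usually have been given. By the series' design text, Py117 clones are radiation-sensitive, Py8119 clones are resistant, and the question was how their immune surroundings differ. Host strain, sex and age are not given in the sources used here. Labels call the arrays of a group biological replicates, numbered as in the text below, without saying whether each came from its own mouse or culture.

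Macrophages and monocytes depend on the transcription factor PU.1, the product of Spi1, which takes part in switching on many genes of the list. Their activating Fc receptors, Trem2 and some C-type lectins, such as Clec4n, carry signals through small ITAM adapters, chiefly Tyrobp (also called DAP12) and Fcer1g. Circulating classical monocytes carry Ly6C at a high level and lose it as they mature into tissue macrophages, while C1q, Trem2, Folr2 and Cx3cr1 are typical of mature tissue and tumour macrophages. In mammary tumours, such cells engulf dying cells, secrete C1q and lysozyme, and can support or restrain tumour growth.

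Values are log2 signals, so a difference of 1 is a 2-fold change. A difference is given with its standard error (SE) from limma, and a gene is called where the p-value adjusted by the Benjamini-Hochberg method over all 22180 genes is under 0.05. Probe sets differ in brightness, so levels are compared between samples and never between genes. The reference for background is 5.31, the 95th percentile of the mean signals of 1394 odorant and vomeronasal receptor genes, whose median was 3.27. Array medians lay between 5.24 and 5.53, and arrays of a group correlated across genes with r between 0.969 and 0.994.

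All 31 measured genes were above the background reference, as group means, in all 3 kinds of tumour. In culture, 12 of the 31 were at or below it in both lines. Among those were Adgre1, a classical surface antigen of macrophages, Itgam, Tyrobp, Laptm5, Pld4 and Cybb. A further 5 were above it in 1 line (Lyz2, Fcgr1, Apoe, Ly6c2 and Aif1) and 14 in both, among them Cd14, Gpnmb and the lysosomal protease Ctsb. In 28 of 31 genes every one of the 15 tumour arrays exceeded every one of the 6 culture arrays, the exceptions being Cd14, Ly6c2 and Gpnmb. Among all genes measured, 5.13% had every tumour array above every culture array. The heat map of single arrays shows this step between culture and tumour.

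**Figure D1:**
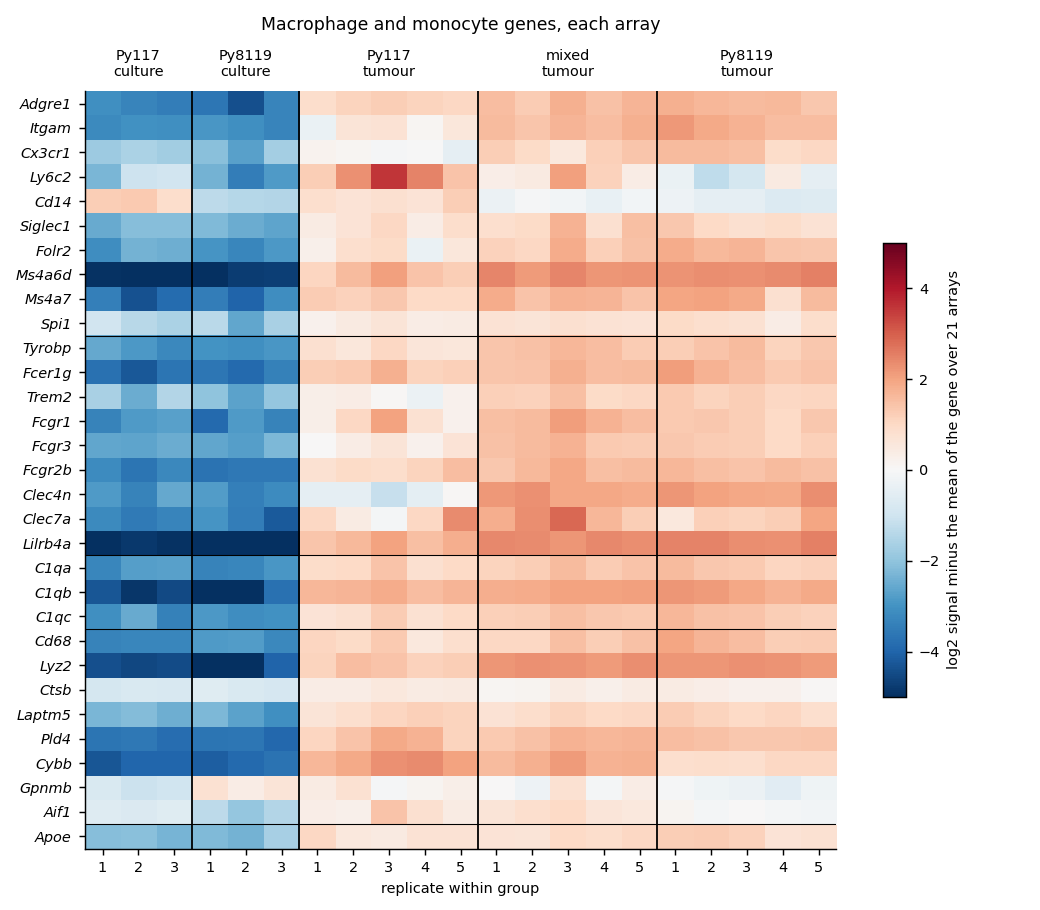
Heat map of the 31 genes (rows, ordered by role and separated by thin lines) on the 21 arrays (columns, grouped by sample type), coloured by log2 signal minus the mean of that gene over all arrays, with the darkest shades standing for values at or beyond the end of the scale. In 28 of 31 genes the 15 tumour columns lie above the 6 culture columns, against 5.13% of all genes measured, and within tumours Ly6c2, Cd14 and Cybb run opposite to Clec4n, Itgam and Lyz2.

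Against its own culture, 30 of 31 genes were higher in Py117 tumours and none was lower, with a median difference of 3.62 beside -0.09 for all genes. Of all genes, 12.4% were called higher and 18.3% lower in that comparison. Cd14 was not called, at -0.29 ± 0.16 (adjusted p = 0.205). In Py8119 tumours, 30 genes were higher and 1 was lower than in Py8119 culture, with a median of 4.48 beside -0.05 for all genes, of which 16.3% were called higher and 20.9% lower. The single gene that fell was Gpnmb, by 0.86 ± 0.13 (adjusted p = 0.000481). The rise was steepest for Lilrb4a, an inhibitory leukocyte receptor, at 6.67 ± 0.16 in Py117 and 8.10 ± 0.20 in Py8119 tumours, and for Ms4a6d at 6.64 ± 0.20 and 7.38 ± 0.19. Cultures were of the lines alone, and for genes at background there the size of the rise is limited by background. Sample type and any batch of culture and tumour arrays cannot be told apart.

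Promoters are shown for 5 genes that differed between tumours, because PU.1 binds a purine-rich core in many myeloid promoters. The letters searched were GAGGAA on either strand, so TTCCTC on the strand shown, in windows from 250 bases before to 50 bases after RefSeq transcript starts (GRCm38.p6). Of the 32 listed genes, 22 had a window that was counted. The letters were in 16 of these (72.7%), beside 31.3% of 27025 genes with a window. Windows of listed genes on the chromosome of Cd14 were left out, while the counts of all genes kept that chromosome. Counted by window, the share was 20 of 30 (66.7%) beside 28.3% of all 32851. The longer form GAGGAAGT was in 5 windows of 4 listed genes and in 3.20% of all windows. A match describes the letters only. The 250 bases before the start are printed 5′ to 3′ on the strand of the gene, with the core in capitals. Itgam (chr7:128062390-128062639, plus strand) and Trem2 (chr17:48346151-48346400, plus strand) were higher in Py8119 than in Py117 tumours, as was Lyz2 (chr10:117282273-117282522, minus strand). Ly6c2 (chr15:75111972-75112221, minus strand) and Aif1 (chr17:35176053-35176302, minus strand) were lower.
Itgam: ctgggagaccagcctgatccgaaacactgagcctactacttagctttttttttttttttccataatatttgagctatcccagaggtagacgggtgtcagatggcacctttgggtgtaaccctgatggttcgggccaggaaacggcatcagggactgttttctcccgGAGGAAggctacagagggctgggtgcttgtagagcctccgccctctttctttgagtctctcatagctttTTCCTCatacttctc
Trem2: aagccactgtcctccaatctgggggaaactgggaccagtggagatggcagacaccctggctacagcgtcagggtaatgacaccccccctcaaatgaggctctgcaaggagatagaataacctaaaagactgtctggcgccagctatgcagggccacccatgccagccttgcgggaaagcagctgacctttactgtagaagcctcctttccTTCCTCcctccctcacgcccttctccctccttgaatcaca
Lyz2: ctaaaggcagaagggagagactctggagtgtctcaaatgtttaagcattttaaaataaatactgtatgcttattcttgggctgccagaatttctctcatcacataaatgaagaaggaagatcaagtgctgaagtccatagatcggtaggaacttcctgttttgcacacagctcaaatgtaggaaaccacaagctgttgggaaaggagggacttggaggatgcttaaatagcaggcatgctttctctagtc
Ly6c2: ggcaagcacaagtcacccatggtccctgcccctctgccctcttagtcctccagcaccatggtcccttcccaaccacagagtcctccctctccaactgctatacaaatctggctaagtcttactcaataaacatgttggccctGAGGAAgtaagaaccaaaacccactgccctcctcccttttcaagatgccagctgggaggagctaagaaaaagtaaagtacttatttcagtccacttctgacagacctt
Aif1: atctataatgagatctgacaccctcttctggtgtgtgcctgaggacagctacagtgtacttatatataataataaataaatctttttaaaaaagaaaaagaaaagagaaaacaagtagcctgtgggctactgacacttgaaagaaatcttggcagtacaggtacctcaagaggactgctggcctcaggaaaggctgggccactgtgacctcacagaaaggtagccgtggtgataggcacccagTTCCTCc
Itgam held the core 84 and 15 bases before its start, and Trem2 40 bases before. Lyz2 held neither GAGGAA nor TTCCTC in its window, and other purine-rich letters that PU.1 may bind were not searched. Ly6c2 held the longer form 108 bases before its start, and Aif1 the core 7 bases before. Genes that were higher and genes that were lower in Py8119 tumours thus both include promoters with the core.

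Between tumours of the 2 lines, most of the list was higher in Py8119 tumours, while the monocyte marker Ly6c2, Cd14 and the oxidase subunit Cybb were lower. Of 31 genes, 17 were higher, 5 were lower and 9 were not called, beside 21% of all genes called higher and 16.5% called lower. The median difference was 0.39 over the list and 0.01 over all genes. The 5 arrays of Py8119 tumours lay wholly above those of Py117 tumours in 11 genes and wholly below in 4, beside 15.7% and 11.9% of all genes. These are whole tumours, so fewer cells of a type and less RNA per cell cannot be told apart. With the mean of adipocyte genes as a covariate the count of higher genes was 9 with 5 lower, beside 17.9% and 13.0% of all genes in that fit; Clec7a was newly called higher and Fcgr1 newly lower. Without the 3 Py117 tumours richest in those genes (tumours 1, 4 and 5) it was 14 with 4 lower, beside 21% and 15.9%. The covariate ended the calls of Adgre1, Ms4a6d, Ms4a7, Folr2, Spi1, Tyrobp, C1qb, C1qc, Cd68 and Gpnmb, and kept those of Clec4n, Itgam, Cx3cr1, Trem2, Lyz2, Fcgr3, Fcgr2b, Lilrb4a, Ly6c2, Cd14, Cybb and Aif1. The adipocyte mean was 6.423 to 8.871 in Py117, 5.825 to 6.26 in mixed and 5.576 to 6.205 in Py8119 tumours. Py117 tumours thus did not overlap the others in it, and this fit cannot tell adipocyte level and tumour group apart. Calls lost or gained under the covariate therefore do not sort genes by their dependence on adipocytes.

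**Figure D2:**
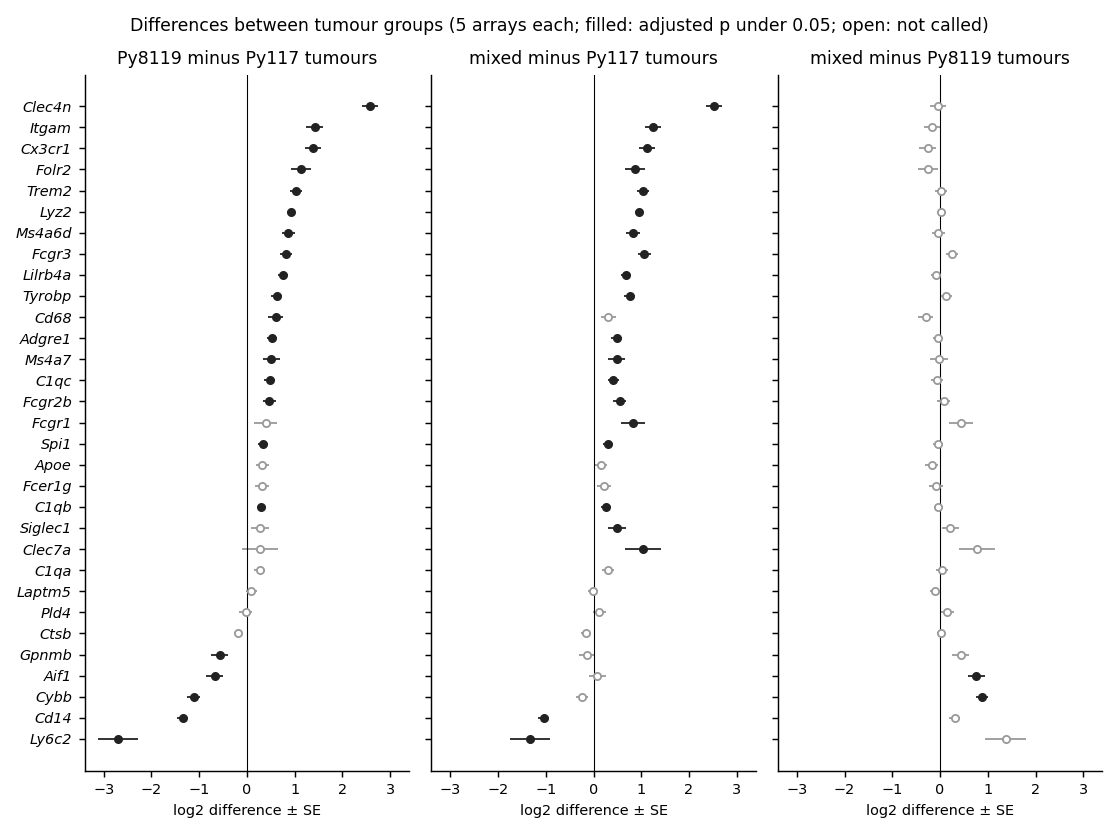
Log2 differences between tumour groups for the 31 genes (rows, the same order in each panel), with bars of 1 SE from a fit of 15 tumour arrays (5 per group) and filled points where the adjusted p was under 0.05. Clec4n stands out on the right at 2.57 and Ly6c2 on the left at -2.70 in the first panel, and most points of the third panel lie near 0.

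Among the lineage and surface genes, 7 of 10 were higher in Py8119 tumours and 2 were lower, beside 21% and 16.5% of all genes. Itgam, the alpha chain of the CD11b integrin, was read at 7.66, 8.64, 8.71, 8.09 and 8.56 in Py117 tumours 1 to 5 and at 10.13, 9.86, 9.71, 9.52 and 9.53 in Py8119 tumours. The lowest Py8119 tumour was above the highest Py117 tumour. The difference was 1.42 ± 0.18, or 2.67-fold (adjusted p = 3.44e-06). Cx3cr1, the fractalkine receptor, stood at 8.11, 8.02, 7.87, 7.91 and 7.47 in Py117 tumours and at 9.50, 9.53, 9.44, 8.83 and 8.98 in Py8119 tumours. These groups did not overlap either, and the difference was 1.38 ± 0.17, or 2.60-fold (adjusted p = 4.04e-06). For Folr2, the beta folate receptor of tissue-resident macrophages, Py117 tumours gave 8.92, 9.50, 9.61, 8.33 and 9.23. Py8119 tumours gave 10.50, 10.29, 10.37, 10.04 and 10.02, all above them, with a difference of 1.13 ± 0.21 (adjusted p = 0.00023). With the adipocyte covariate the Folr2 difference was 0.63 (adjusted p = 0.110).

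Smaller rises were seen for Ms4a6d (0.86 ± 0.14), Adgre1 (0.53 ± 0.11) and Ms4a7 (0.51 ± 0.18), membrane proteins of macrophages, and for Spi1 (0.34 ± 0.11). The Ms4a7 call was lost when any of Py117 tumours 2, 4 and 5 or Py8119 tumours 1, 2 and 3 was left out, and that of Spi1 without Py117 tumour 1 or Py8119 tumour 1. Siglec1, a sialic acid receptor of resident macrophages, differed by 0.28 ± 0.18 and was not called (adjusted p = 0.285).

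Ly6c2, the surface marker of classical monocytes, went the other way and by more than any other gene of the list. Py117 tumours gave 8.04, 9.11, 10.41, 9.30 and 8.26, and Py8119 tumours 6.50, 5.54, 5.94, 7.28 and 6.36. Every Py8119 tumour was below every Py117 tumour, and the difference was -2.70 ± 0.42, or 6.49-fold lower (adjusted p = 4.47e-05). Its neighbour and near copy Ly6c1 was at or near background in all groups, at 4.42 to 5.41 in Py117 tumours, and was also lower (-0.92 ± 0.28, adjusted p = 0.013). How far probes of the pair cross-react was not tested. Cd14, the endotoxin co-receptor, was read at 9.55, 9.39, 9.53, 9.38 and 9.96 in Py117 tumours and at 8.45, 8.27, 8.27, 8.03 and 8.08 in Py8119 tumours. It was lower in every Py8119 tumour, by 1.34 ± 0.11 (adjusted p = 3.58e-08). Cd14 was also the gene with the widest gap between the cultures, as given below.

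The 9 ITAM adapters and receptors all had positive differences, and 6 were called, beside 21% of all genes called higher. The inhibitory receptors Fcgr2b and Lilrb4a were among the 6, so the rise was not of activating genes alone. Clec4n, the alpha-mannan lectin that pairs with Fcer1g, showed the widest rise of the list. Its 5 Py117 tumours gave 7.04, 7.01, 6.31, 6.99 and 7.55, against 9.67, 9.50, 9.42, 9.36 and 9.80 in Py8119 tumours. The groups lay well apart, with a difference of 2.57 ± 0.17, or 5.95-fold (adjusted p = 1.08e-09). Trem2, a lipid receptor that signals through Tyrobp, stood at 8.18, 8.26, 7.94, 7.61 and 8.10 and at 9.19, 9.01, 9.11, 8.93 and 8.97 in the same order of groups. All Py8119 tumours were above all Py117 tumours, by 1.02 ± 0.12 on average (adjusted p = 2.5e-06). Its partner Tyrobp rose by 0.63 ± 0.11, whereas the other adapter, Fcer1g, differed by 0.31 ± 0.15 and was not called (adjusted p = 0.115).

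Of the IgG receptors, the activating Fcgr3 (0.81 ± 0.13) and the inhibitory Fcgr2b (0.47 ± 0.13) were higher, and the high-affinity Fcgr1 was not called at 0.39 ± 0.25 (adjusted p = 0.253). With the adipocyte covariate the Fcgr1 difference turned to -0.64 and was called lower (adjusted p = 0.0396). Lilrb4a, an inhibitory receptor, rose by 0.76 ± 0.11. A second probe set, shared by Lilrb4a and its near copy Lilr4b, had means of 7.81 in Py117, 9.12 in mixed and 9.32 in Py8119 tumours, so reads of the pair cannot be split there. Clec7a, the beta-glucan lectin, spread from 7.36 to 9.83 among Py117 tumours and from 7.99 to 9.44 among Py8119 tumours, and was not called (0.27 ± 0.38, adjusted p = 0.66), although with the adipocyte covariate it was called higher at 1.37 (adjusted p = 0.0442).

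C1q, made from 3 chains encoded side by side, is a product of mature macrophages. C1qc (0.48 ± 0.12) and C1qb (0.30 ± 0.09) were higher in Py8119 tumours, and C1qa was not called at 0.27 ± 0.12 (adjusted p = 0.0992). The C1qb call was lost without Py8119 tumour 1 or 2.

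The genes of the lysosome, phagosome and cytoplasm split, with 2 of 8 higher, 3 lower and a median of -0.11. Of all genes, 21% were called higher and 16.5% lower, so the share of these genes called higher was near that of all genes. Lyz2, lysozyme M, was read at 11.38, 11.82, 11.71, 11.43 and 11.52 in Py117 tumours and at 12.48, 12.51, 12.57, 12.52 and 12.41 in Py8119 tumours. The latter were tightly grouped above the former, and the difference was 0.93 ± 0.09 (adjusted p = 1.9e-07). Lyz1, the other lysozyme gene, differed by 0.56 ± 0.23 and was not called (adjusted p = 0.0684). Cd68, a lysosomal glycoprotein, rose by 0.60 ± 0.16, from a range of 9.93 to 10.72 to one of 10.64 to 11.37, with overlap. Its call was lost without Py117 tumours 1, 4 and 5 together.

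Cybb, the catalytic subunit of the phagocyte NADPH oxidase, was lower in Py8119 tumours. It gave 10.69, 10.94, 11.34, 11.41 and 11.05 in Py117 tumours and 9.88, 9.92, 9.88, 10.08 and 10.09 in Py8119 tumours. The groups did not overlap, with a difference of -1.12 ± 0.13, or 2.17-fold lower (adjusted p = 1.78e-06). Aif1, the actin-binding protein also known as Iba1, stood at 7.13, 7.06, 8.24, 7.60 and 7.22 against 6.93, 6.71, 6.84, 6.71 and 6.68, again without overlap. It was lower by 0.68 ± 0.17 (adjusted p = 0.00441), and Py117 tumour 3 lay highest. Gpnmb, a glycoprotein of lysosomes that tumour cells can also make, gave 7.16, 7.48, 6.67, 6.87 and 7.02 against 6.69, 6.52, 6.45, 6.18 and 6.51. Here the lowest Py117 tumour lay just below the highest Py8119 tumour, and the difference was -0.57 ± 0.18 (adjusted p = 0.0149), a call lost with the adipocyte covariate (adjusted p = 0.0832), without Py117 tumours 1, 4 and 5 (adjusted p = 0.0685) and with the pan-leukocyte mean subtracted from each array (-0.42, adjusted p = 0.122). Ctsb (-0.19 ± 0.09), the endolysosomal nuclease Pld4 (-0.03 ± 0.14) and the lysosomal membrane protein Laptm5 (0.09 ± 0.11) were not called. The secreted lipid carrier Apoe was not called either, at 0.32 ± 0.13 (adjusted p = 0.0691).

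**Figure D3:**
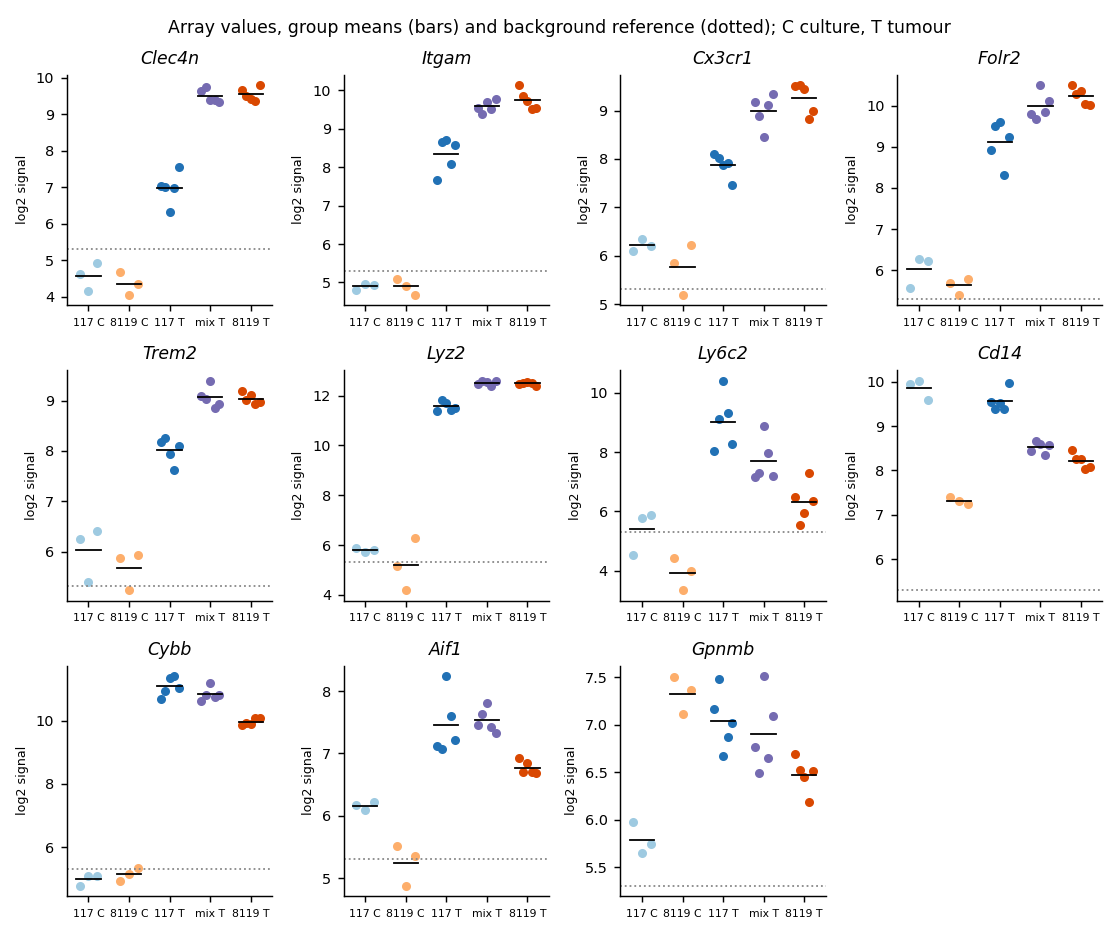
Log2 signals of 11 genes on every array (points, 3 per culture and 5 per tumour group), with group means as bars and the background reference of 5.31 as a dotted line where in range. Each panel has its own vertical axis. Mixed tumours sit with Py8119 tumours for Clec4n, Trem2 and Lyz2, near Py117 tumours for Cybb and Aif1, and between both for Ly6c2.

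Mixed tumours were compared with each unmixed group. These comparisons share arrays with the one above, so their values are set side by side only. Against Py117 tumours, 19 of 31 genes were higher, 2 were lower and 10 were not called, with a median of 0.48 beside -0.03 for all genes. Of all genes, 19.2% were called higher and 16.9% lower. Arrays did not overlap in 12 genes that were higher and 1 that was lower, beside 14.0% and 10.8% of all genes. The count of higher genes was 11 with the adipocyte covariate, beside 17.6% of all genes in that fit, and 12 without Py117 tumours 1, 4 and 5, beside 20.1%.

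Clec4n was read at 9.63, 9.76, 9.40, 9.39 and 9.32 in mixed tumours, 2.52 ± 0.17 above Py117 tumours (adjusted p = 3.22e-09). Itgam gave 9.55, 9.37, 9.68, 9.52 and 9.76, a rise of 1.24 ± 0.18 (adjusted p = 1.96e-05). Cx3cr1 gave 9.18, 8.88, 8.46, 9.12 and 9.33, a rise of 1.12 ± 0.17 (adjusted p = 5.38e-05). Each of these 3 genes was higher in every mixed tumour than in every Py117 tumour. Trem2 stood at 9.10, 9.03, 9.40, 8.85 and 8.93, higher by 1.04 ± 0.12 and without overlap. Lyz2 gave 12.48, 12.59, 12.54, 12.40 and 12.61, higher by 0.95 ± 0.09 and again without overlap. Folr2 gave 9.81, 9.68, 10.50, 9.85 and 10.12, all above the highest Py117 tumour at 9.61, with a difference of 0.87 ± 0.21 that was not called under the adipocyte covariate. Of the ITAM adapters and receptors, with the inhibitory ones counted, 8 of 9 were higher. Fcgr3 rose by 1.07 ± 0.13 and Tyrobp by 0.76 ± 0.11, and the inhibitory Lilrb4a rose by 0.67 ± 0.11 and Fcgr2b by 0.55 ± 0.13.

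Clec7a (1.04 ± 0.38), Fcgr1 (0.83 ± 0.25) and Siglec1 (0.49 ± 0.18) were called in mixed tumours although not in Py8119 tumours. With the adipocyte covariate Fcgr1 turned to -0.08 (adjusted p = 0.803). The difference between mixed and Py8119 tumours was not called for any of these 3 (adjusted p = 0.388, 0.465 and 0.655). The Clec7a and Siglec1 calls were lost in 7 and 8 of 15 fits that each left out 1 array, which for Clec7a were Py117 tumours 1 to 4 and mixed tumours 1 to 3. For Siglec1 they were Py117 tumours 1, 2 and 4, mixed tumours 3 and 5 and Py8119 tumours 2, 3 and 4. Calls of C1qb (0.26 ± 0.09), Ms4a7 (0.49 ± 0.18) and Spi1 (0.30 ± 0.11) were lost in 7, 7 and 8 such fits. All 3 lost it without Py117 tumour 2, 4 or 5 or mixed tumour 3 or 4. C1qb and Spi1 also lost it without Py117 tumour 1 or mixed tumour 5, Ms4a7 and Spi1 without mixed tumour 1, and Ms4a7 without Py8119 tumour 5. Ms4a6d (0.83 ± 0.14), Adgre1 (0.48 ± 0.11) and C1qc (0.41 ± 0.12) were higher in every fit that left out 1 array.

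Cd14 in mixed tumours was 8.43, 8.66, 8.59, 8.35 and 8.58, below every Py117 tumour, and fell by 1.04 ± 0.11 (adjusted p = 1.28e-06). Ly6c2 gave 7.16, 7.28, 8.88, 7.97 and 7.18, partly within the range of Py117 tumours, with a difference of -1.33 ± 0.42 (adjusted p = 0.0189). That call was lost without Py117 tumour 3 (-0.98, adjusted p = 0.053), mixed tumour 1 (-1.19, adjusted p = 0.0511) or mixed tumour 5 (-1.20, adjusted p = 0.0512), each of which left 1 gene called lower in place of 2.

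Against Py8119 tumours, only Cybb and Aif1 of the 31 genes were called, both higher in mixed tumours, beside 1.61% of all genes called higher and 0.162% lower. Cybb was read at 10.63, 10.82, 11.19, 10.77 and 10.83, above every Py8119 tumour, with a difference of 0.88 ± 0.13 (adjusted p = 0.000682). Aif1 gave 7.46, 7.63, 7.81, 7.43 and 7.33, likewise above every Py8119 tumour, with a difference of 0.76 ± 0.17 (adjusted p = 0.0286). The Aif1 call was lost in 7 of 15 fits that left out 1 array (mixed tumours 2, 3 and 4 and Py8119 tumours 2, 3, 4 and 5), with adjusted p between 0.0503 and 0.0995, which left Cybb as the single gene called. It was also lost with quantile normalization (adjusted p = 0.0861) and with the pan-leukocyte mean subtracted, where the difference was 0.49 (adjusted p = 0.0556). Arrays did not overlap in 3 genes, all higher in mixed tumours, beside 3.85% of all genes higher and 1.69% lower. Fcgr1 was the one that was not called (0.44 ± 0.25, adjusted p = 0.465).

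Gpnmb in mixed tumours was 6.76, 6.49, 7.51, 6.65 and 7.10, which overlaps both unmixed groups. The mean of mixed tumours lay between the unmixed means in 19 genes, above both in 11 and below both in 1, Laptm5, whose 3 means were 7.95, 7.94 and 8.05. It was nearer to the Py8119 mean in 24 genes. The 7 nearer to the Py117 mean were Cybb, Aif1, Gpnmb, Ly6c2, Apoe, Pld4 and Laptm5. These counts include genes not called between the unmixed groups, such as Clec7a and Ctsb. Positions were not counted over all genes. Of all genes, 1.61% were called higher and 0.162% lower in mixed than in Py8119 tumours, beside 19.2% and 16.9% against Py117 tumours.

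In culture the lines differed in few of these genes. Gpnmb was higher in Py8119 culture, and Cd14, Ly6c2 and Aif1 were lower, with 27 genes not called, beside 14.5% of all genes called higher and 12.3% lower. The median difference was -0.21, and -0.01 over all genes. Cd14 was far above background in both lines, at 9.94, 10.03 and 9.59 in Py117 culture and 7.39, 7.30 and 7.23 in Py8119 culture, a difference of -2.54 ± 0.13 (adjusted p = 2.16e-05). Gpnmb gave 5.97, 5.65 and 5.75 against 7.51, 7.11 and 7.36, a difference of 1.54 ± 0.14 (adjusted p = 0.000247). Both genes were thus above the background reference in cultured carcinoma cells.

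Aif1 in culture was 6.17, 6.09 and 6.22 in Py117 and 5.51, 4.88 and 5.35 in Py8119, where it straddled background, with a difference of -0.91 ± 0.17 (adjusted p = 0.00621). Ly6c2 gave 4.55, 5.79 and 5.87 against 4.45, 3.35 and 4.00, a difference of -1.47 ± 0.41 (adjusted p = 0.0346). That call was lost without Py117 culture 2 or 3 or Py8119 culture 2 or 3, with adjusted p between 0.0731 and 0.124. The count of lower genes was 5 without Py8119 culture 1, and that of higher genes 2 without Py8119 culture 3. The other genes of the list that were followed array by array were low in both lines. Clec4n gave 4.62, 4.15 and 4.93 in Py117 culture and 4.68, 4.06 and 4.34 in Py8119 culture, all below the reference. Itgam was likewise below it throughout, at 4.81, 4.96 and 4.92 and at 5.08, 4.92 and 4.69. Cybb gave 4.78, 5.07 and 5.09 and then 4.93, 5.15 and 5.34, with 1 array just above it. The other 4 lay close above or around the reference, and none was called. Cx3cr1 gave 6.10, 6.35 and 6.21 in Py117 and 5.85, 5.20 and 6.23 in Py8119 culture. For Folr2 the values were 5.56, 6.28 and 6.21 against 5.70, 5.41 and 5.78. Trem2 gave 6.26, 5.40 and 6.42 against 5.87, 5.24 and 5.94. These 3 receptors of mature macrophages thus overlapped between lines. Lyz2 gave 5.90, 5.72 and 5.81 against 5.16, 4.19 and 6.29, with the Py8119 values on both sides of the Py117 values.

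**Figure D4:**
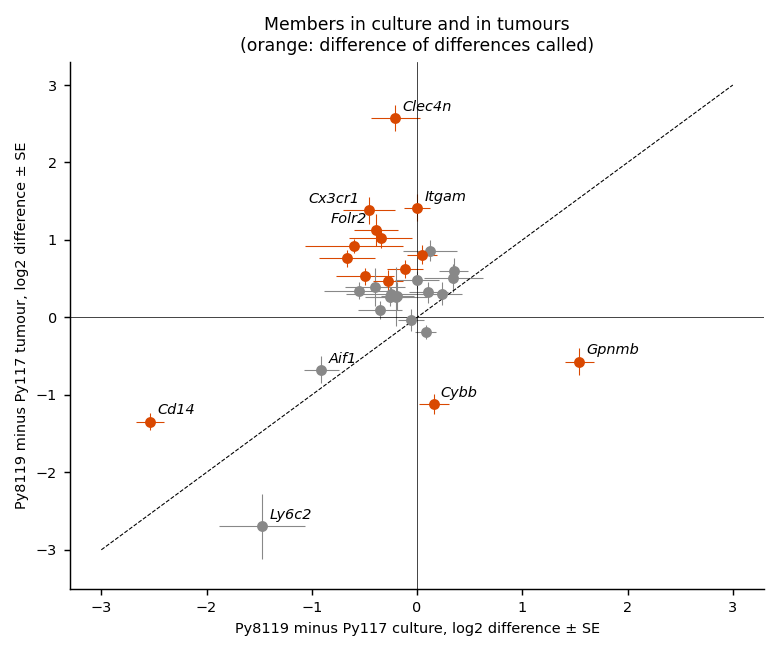
Py8119 minus Py117 difference in culture (horizontal, 3 arrays per line) and in tumours (vertical, 5 per line) for the 31 genes, log2 units with bars of 1 SE, the dashed line marking equal differences and orange marking genes whose 2 differences were called different. Cd14 and Gpnmb lie far from 0 on the horizontal axis at -2.54 and 1.54, while Clec4n, Itgam and Cx3cr1 lie near 0 there and high on the vertical axis.

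The difference between lines in tumours was tested against that in culture as an interaction. It was called in 14 of 31 genes, 12 with a more positive and 2 with a more negative difference in tumours, beside 7.50% and 5.99% of all genes. The median was 0.55, beside 0.03 for all genes. Clec4n had the largest positive value, 2.78 ± 0.32 (adjusted p = 1.21e-05), followed by Cx3cr1 at 1.84 ± 0.30 (adjusted p = 0.000396), Lyz2 at 1.52 ± 0.40 (adjusted p = 0.0162) and Folr2 at 1.51 ± 0.34 (adjusted p = 0.00538). Lilrb4a (1.42 ± 0.27), Itgam (1.42 ± 0.29), Trem2 (1.37 ± 0.29) and Adgre1 (1.03 ± 0.26) were also called. Culture means of Clec4n, Lilrb4a, Itgam, Adgre1, Tyrobp and Cybb were below the background reference in both lines. For Lilrb4a (4.72 in Py117 and 4.05 in Py8119 culture) and Adgre1 (5.07 and 4.58), part of the interaction is thus a difference between background readings. Fcgr3 (0.76 ± 0.21), Fcgr2b (0.75 ± 0.21) and Tyrobp (0.74 ± 0.21) were called too, but each lost the call when 1 of several culture arrays was left out. Those were Py117 culture 3 and Py8119 culture 2 for Fcgr3, Py117 culture 1 and 3 and Py8119 culture 1 for Fcgr2b, and Py117 culture 1 and 2 and Py8119 culture 2 for Tyrobp. Gpnmb had the most negative value, -2.11 ± 0.23 (adjusted p = 6.34e-06), as its order between lines was opposite in culture and in tumours. Cybb followed at -1.27 ± 0.21 (adjusted p = 0.000487). For Cd14 the value was 1.20 ± 0.20 (adjusted p = 0.000465), since the gap between lines was narrower in tumours than in culture. The interaction of Ly6c2 was not called (-1.23 ± 0.67, adjusted p = 0.277), nor was that of Aif1 (0.23 ± 0.30, adjusted p = 0.692).

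Tumours of a group did not spread alike across the list. The median SD of the 31 genes was 0.275 in Py117, 0.185 in mixed and 0.181 in Py8119 tumours, beside 0.205, 0.151 and 0.150 for all genes. Ly6c2 was the most variable gene in each group, with SDs of 0.942, 0.743 and 0.653. Py117 tumour 3 was the highest of its group in 19 genes, Ly6c2, Fcgr1 and Aif1 among them, and Py117 tumour 1 the lowest in 14. Mixed tumour 3 was the highest in 21 genes. Among Py8119 tumours, tumour 1 was the highest in 19 and tumour 4 the lowest in 18.

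Further macrophage genes were read from a second list of 30, of which 29 were measured. In Py8119 against Py117 tumours 13 of these were higher and 8 lower, with a median of 0.30, beside 21% and 16.5% of all genes. Csf1r, the receptor for the macrophage growth factor, was higher by 0.40 ± 0.12 (adjusted p = 0.0106), at 9.86 to 10.36 in Py117 and 10.23 to 10.79 in Py8119 tumours, which overlap. The complement receptor Vsig4 (2.13 ± 0.24, but with a Py117 tumour mean of 3.77 that is below background) and the scavenger receptor Msr1 (2.06 ± 0.15, from 7.57 to 9.62) rose most. Mpeg1, the pore-forming perforin of macrophages, was lower by 1.79 ± 0.20, and Plac8, which is abundant in monocytes, by 1.65 ± 0.39. Ccr2, the chemokine receptor of classical monocytes, which was looked up after its values were seen, was higher by 0.79 ± 0.16, so the monocyte genes of the lists did not move one way. In mixed tumours 15 were higher and 4 lower than in Py117 tumours, with a median of 0.47, beside 19.2% and 16.9% of all genes. Msr1 was among the higher, at 1.99 ± 0.15.

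Transcription factors of myeloid cells were called in both directions. Of 12 measured, 4 were higher and 4 lower in Py8119 than in Py117 tumours, beside 21% and 16.5% of all genes. Maf rose by 1.50 ± 0.15 and Tfec by 1.23 ± 0.22, while Bhlhe41 fell by 2.65 ± 0.15 and Cebpb by 1.14 ± 0.11. Bhlhe41 was read at 9.92 in Py117 culture and 5.78 in Py8119 culture, so the cultured carcinoma cells carry it too. Maf and Cebpb also had means above the background reference in both cultures, while Tfec was below it in both. Of the 12 factors, 2 had means below the reference in each culture. In mixed tumours, 2 were higher and 3 lower than in Py117 tumours, beside 19.2% and 16.9% of all genes. Among 12 partners of ITAM signalling and of the NADPH oxidase, 4 were higher and 1 lower in Py8119 tumours, beside 21% and 16.5% of all genes. The higher genes included the oxidase subunits Ncf4 (0.74 ± 0.11) and Ncf1 (0.63 ± 0.15) and the kinase Btk (0.67 ± 0.14), and Plcg2 was lower (-1.15 ± 0.10). Cyba, the membrane partner of Cybb, completed the 4 (0.50 ± 0.13; named after its values were seen), so these 3 oxidase subunits rose while Cybb fell. Culture means of Ncf4, Ncf1, Cyba and Plcg2 were above the background reference in both lines, and that of Btk was below it in both. The count in mixed against Py117 tumours was also 4 higher and 1 lower, beside 19.2% and 16.9% of all genes.

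**Figure D5:**
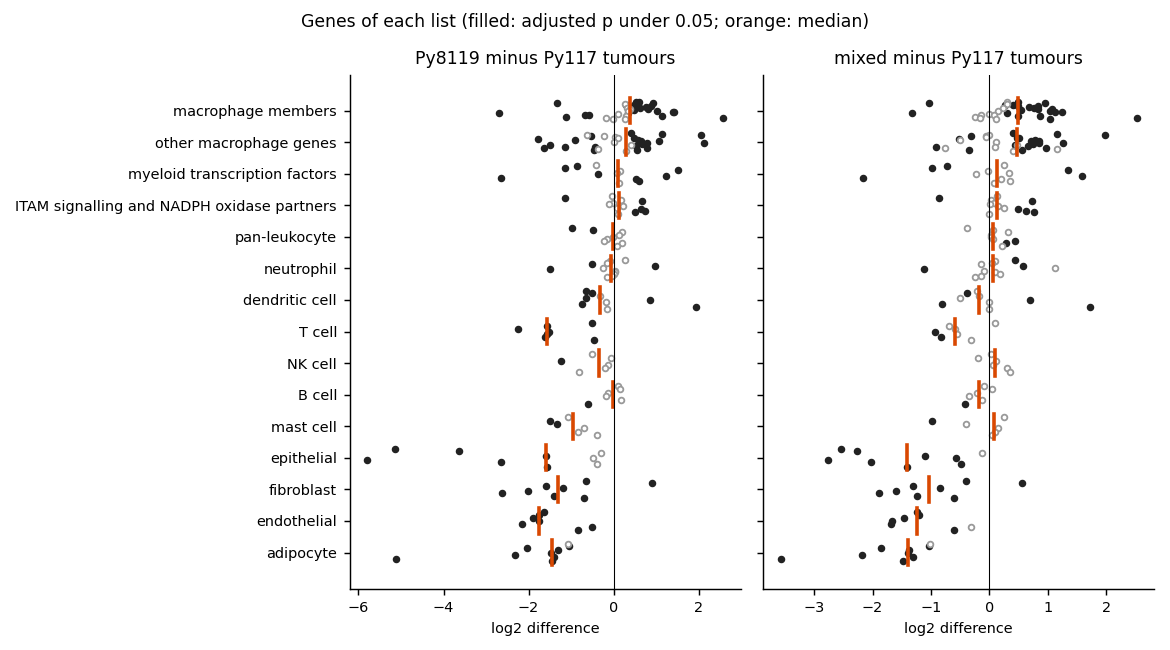
Log2 differences of single genes (points, filled where the adjusted p was under 0.05) for the macrophage list and 14 other lists, with the median of each list as an orange bar, for Py8119 (left) and mixed (right) against Py117 tumours. The macrophage lists have medians above 0, at 0.39 and 0.30 on the left, whereas endothelial, adipocyte, T cell and fibroblast genes lie mostly below 0.

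Markers of other cells moved between the same tumours, and their part in the macrophage results was not tested beyond the fits with adipocyte and pan-leukocyte genes. With the pan-leukocyte mean subtracted from each array, 20 of the 31 macrophage genes were higher and 4 lower in Py8119 than in Py117 tumours, beside 20.7% and 9.50% of all genes, whose median moved to 0.16. In mixed against Py117 tumours 13 were higher and 2 lower, beside 8.90% and 16.7% of all genes, whose median moved to -0.15. The calls of Adgre1, C1qb, C1qc, Ms4a7, Spi1 and Siglec1 in mixed against Py117 tumours were lost in that fit. Of 9 pan-leukocyte genes, none was higher and 2 were lower in Py8119 tumours, Ptprc (CD45) by 0.98 ± 0.17 and Cd52 by 0.49 ± 0.15, and the mean log2 level of the 9 ran from 8.70 to 9.35 in Py117, 9.05 to 9.44 in mixed and 8.85 to 8.98 in Py8119 tumours. All 7 T cell genes were lower, by a median of 1.56, with summed signals of 723 to 2176 in Py117, 606 to 1022 in mixed and 391 to 459 in Py8119 tumours. Neutrophil genes were near background, with 7 of 12 means below the reference in Py8119 tumours (S100a8, S100a9, Ltf, Camp, Ngp, Ly6g and Mpo), and 1 was higher and 2 lower than in Py117 tumours. Their summed signals were 469 to 1108, 556 to 695 and 441 to 614 in the same order. Of 9 dendritic cell genes, 2 were higher and 4 lower (summed signals 1476 to 2038, 2318 to 3104 and 2526 to 3429). The 2 higher genes were Fscn1 and Cd209a, which the cultured lines also showed, at means of 9.82 and 9.20 in Py117 and 10.52 and 9.48 in Py8119 culture, and culture arrays had sums of 1713 to 1929 and 2318 to 2588. NK cell (1 of 6 lower, 448 to 1043, 579 to 1171 and 333 to 456), B cell (1 of 6 lower, 330 to 533, 299 to 338 and 278 to 344) and mast cell genes (2 of 6 lower, 248 to 1691, 532 to 956 and 227 to 444) had no gene called higher. In the main fit of Py8119 against Py117 tumours, 21% of all genes were called higher and 16.5% lower. The lower counts of pan-leukocyte, neutrophil, NK cell and B cell genes lie near that share.

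Non-leukocyte markers were mostly lower in Py8119 than in Py117 tumours, beside 16.5% of all genes called lower. All 7 endothelial genes fell, with summed signals of 2260 to 4002 in Py117, 1240 to 1461 in mixed and 813 to 1158 in Py8119 tumours. Of 8 fibroblast genes 7 fell and 1 rose, with summed signals of 8677 to 15750, 5434 to 8250 and 4871 to 8238 in the same order. Of 9 epithelial genes 6 fell (6141 to 9412, 2025 to 2757 and 1405 to 1679), and 8 of these 9 were also lower in Py8119 than in Py117 culture. Of 9 adipocyte genes 8 fell, with summed signals of 1997 to 7102, 616 to 1076 and 490 to 924. Py117 tumours 1, 4 and 5 had mean adipocyte levels of 8.82, 7.91 and 8.87, against 6.42 and 6.48 in tumours 2 and 3. Py117 tumours 1 and 4 were lowest of their group in 14 and 9 of the macrophage genes, whereas tumour 5 was lowest in 3 and highest in 5.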

How the data were processed

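Total RNA of 21 samples was labelled with the WT PLUS assay and hybridised to mouse whole-transcript arrays, per the labels' protocols. The values that the authors deposited are on the log2 scale. The submitters' processing notes list RMA and limma, with no version. Batches and scan dates are not given in the sources used here. Of 41345 probe sets, 23521 had a single gene symbol, 1814 several and 16010 none. Only the first were used, and for 1082 genes with several the probe set of highest mean was taken, giving 22180 genes. The members and gene lists were chosen with earlier results of these data known.

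Differences were fitted by lmFit and eBayes of limma 3.58.1 (R 4.3.3) on the 15 tumour arrays, the 6 culture arrays, the arrays of each line, or the unmixed groups for the interaction. The procedure was tested on simulated data. Arrays are separate samples per the labels, and p-values measure the spread between them, which may be technical. Their number limits the precision. Alternatives were quantile normalization, centring, leaving out dim genes, averaging probe sets per gene, array weights, a robust prior with a trend on intensity, a fit of all 21 arrays, a replicate block, an adipocyte covariate, subtraction of the pan-leukocyte mean, single arrays left out and a threshold of 0.01. Leaving out 3 Py117 tumours was added after the data were seen.

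Every array value was given for genes among the 6 largest called differences of each sign between Py8119 and Py117 tumours, the 3 largest in each mixed comparison, those called in culture by at least 1 and the 4 largest of each sign in the interaction. Of other lists, up to 4 genes with the largest called differences were named, besides Csf1r and Ptprc. Python 3.11.15 with matplotlib 3.10.9 drew the figures.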

Additional observations from a re-analysis of the deposited data

Results flagged for a closer look

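Within groups of 5, 93 sets of values were examined for a single array far from the rest, and chance alone marks about 1 in 20. Of these, 2 stood apart. Cd14 in Py117 tumour 5 was 9.96, above the next tumour at 9.55. Lilrb4a in mixed tumour 3 was 11.92, below the next at 12.07.

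In 14 genes the difference between the lines in tumours differed from that in culture by the interaction test. The tumour difference was more positive for Clec4n (2.78), Cx3cr1 (1.84), Lyz2 (1.52), Folr2 (1.51), Lilrb4a (1.42), Itgam (1.42), Trem2 (1.37), Cd14 (1.20), Adgre1 (1.03), Fcgr3 (0.76), Fcgr2b (0.75) and Tyrobp (0.74). It was more negative for Gpnmb (-2.11) and Cybb (-1.27). Culture means of Clec4n, Lilrb4a, Itgam, Adgre1, Tyrobp and Cybb were below the background reference in both lines.

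A probe set assigned to both Lilr4b and Lilrb4a, which entered no comparison, had a mean of 9.32 in Py8119 tumours and 4.28 in Py8119 culture.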

How the results depend on the processing

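No value changed direction among the counts of called genes and the genes followed array by array. Of 681 alternatives for those genes 654 kept the call, and of 310 for the counts 287 stayed within 1.5 times. With the adipocyte covariate, genes called higher numbered 9 in place of 17 in Py8119 (8 of the 17, and Clec7a) and 11 in place of 19 in mixed against Py117 tumours, and without Py117 tumours 1, 4 and 5 the latter was 12. Under that covariate Fcgr1 in mixed against Py117 tumours turned to -0.08 (adjusted p = 0.803). Adipocyte means of Py117 tumours did not overlap those of the other tumours, so the covariate cannot be told apart from tumour group. At a threshold of 0.01, genes lower in mixed than in Py117 tumours numbered 1, genes higher in mixed than in Py8119 tumours 1, and interactions called positive 7. Quantile normalization also gave 1 for mixed against Py8119 tumours, and 2 for genes higher in Py8119 culture, as did centring and leaving out dim genes. With centring, 1 gene was lower in Py117 tumours than in culture. Centring moved the median of all genes to 0.11 between the unmixed tumours, 0.14 between cultures and -0.25 and -0.26 between tumour and culture in Py117 and Py8119.

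With single arrays left out, genes called higher ranged from 14 to 20 in Py8119 and from 14 to 21 in mixed against Py117 tumours, and those lower in mixed from 1 to 3. Genes higher in mixed than in Py8119 tumours ranged from 1 to 3, genes higher in Py8119 culture from 1 to 2 and lower from 2 to 5, and positive interactions from 10 to 15. Genes called in every alternative at a threshold of 0.05 numbered 12 of 22 in Py8119 against Py117 tumours (8 higher, 4 lower), 11 of 21 in mixed against Py117 tumours and 11 of 14 interactions.

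Same-numbered samples showed no common deviation across all groups (18 pairs, correlations from -0.234 to 0.257, 4 over 0.1), and the numbers were not taken as pairs. Between Py117 and mixed tumours, numbers 1 to 5 gave 0.156, 0.0947, 0.257, 0.176 and -0.0546. Samples of different number were not compared, so a batch shared by number in these groups was not tested. With a replicate block, 17 genes were higher and 5 lower in Py8119 than in Py117 tumours and 18 higher in mixed than in Py117 tumours, and Ly6c2 between cultures was no longer called (adjusted p = 0.0758). Signal near background limits the size of differences from culture.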

Other observations

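Clec4n and the Ms4a members lie in gene clusters of related receptors, which were looked at after their values were seen. Genes were taken by name and chromosome, without their positions, so the counts may include genes that lie outside a cluster. Of Clec4 genes on chromosome 6, 10 were measured. Py8119 tumours had 4 of them higher and 3 lower than Py117 tumours, beside 21% and 16.5% of all genes. The activating lectins Clec4e (1.62 ± 0.19) and Clec4d (1.10 ± 0.16) and the inhibitory Clec4a2 (0.53 ± 0.11) were higher beside Clec4n. Clec4a1 (-0.84 ± 0.20), Clec4a3 (-0.44 ± 0.13) and Clec4b1 (-0.90 ± 0.15) were lower, the last with means below the background reference in all groups. Mixed tumours gave 4 higher and 1 lower against Py117 tumours.

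In the Ms4a cluster of chromosome 19, 20 genes were measured, with 5 higher and 3 lower in Py8119 than in Py117 tumours. These shares are near those of all genes (21% and 16.5%), so the counts show nothing particular to the cluster. Ms4a4a (0.79 ± 0.27), Ms4a6b (0.67 ± 0.18) and Ms4a14 (0.70 ± 0.23) were higher beside Ms4a6d and Ms4a7. Ms4a4d (-1.81 ± 0.35), Ms4a4c (-1.74 ± 0.33) and Ms4a4b (-1.30 ± 0.33) were lower, with means in Py8119 tumours below the reference, at 4.99, 4.93 and 3.63. Ms4a4b was below it in Py117 tumours too, at 4.93, so its difference lies between background readings. In mixed tumours Ms4a4c was 1.46 ± 0.33 above Py8119 tumours (adjusted p = 0.0238).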
